A study of Mikania micrantha with 15 samples.

Results

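Flowers of Mikania micrantha, a climbing weed that grows quickly and belongs to the daisy family, were compared with its roots by RNA sequencing of bulk tissue. The comparison uses 6 of the series' 15 libraries, chosen by their labelled organ: 3 of flower and 3 of root. The other 9 libraries, from leaf, shoot apex and stem, also entered the filter, the scaling and the estimate of replicate spread behind each p-value. They further serve to describe where the same genes were read elsewhere. All plants were wild type and carried no labelled treatment. They were cuttings that had rooted in water to about 4 to 5 cm and then grew 60 days in Hoagland solution, a mineral nutrient medium, at 24 °C with 16 h of light a day, so the roots are those that cuttings form in liquid culture. The stage of the flowers is not given, nor is it said whether each replicate was its own plant. The p-values therefore measure how the 15 libraries scatter within their organs, and that scatter may in part be technical.

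In the daisy family small florets are grouped into heads, which hold organs of very different kinds, among them bracts, petals, anthers with pollen, and ovaries. A root takes up water and mineral ions, anchors the plant, exchanges signals with microbes, and makes defence compounds. Organ-specific transcription in plants is known for genes of floral identity, pollen and pigments in flowers, and for genes of ion uptake, cell wall barriers and defence in roots. The deposited table lists genes by locus tag, such as E3N88_15267, and does not pair these IDs with names, so which of these functions the genes below have cannot be said, and the organ labels could not be checked against marker genes. No sequence was at hand to print.

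Library totals were 9567064 to 11770796 counts in flower and 3777165 to 10015399 in root. All 3 flower libraries resembled each other, with Pearson's r of 0.975 to 0.984 across genes on the log2 scale. Root replicate 1 stood apart from the other root libraries: its r was 0.925 with root replicate 2 and 0.941 with root replicate 3, while root replicates 2 and 3 had an r of 0.970. Between flower and root, r was 0.603 to 0.647. Levels are given as CPM, the counts of a gene per 1000000 scaled counts of its library. In 12609 genes at 10 CPM or more in both organs, the median coefficient of variation between replicates was 10.2% in flower and 19.6% in root. Leaf replicate 1 held reads of more of the flower genes that had no read in root than the other leaf libraries did, and counts that rest on leaf are given with and without it.

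Flower and root differed in a large part of their genes, with more genes higher in flower. Of 41487 IDs, 27055 had enough counts to be tested, and they held 99.8% of the flower counts and 99.9% of the root counts. With edgeR's quasi-likelihood test, 12166 genes, 45.0% of those tested, were called at an adjusted p (Benjamini-Hochberg) under 0.05 with 2-fold or more between the organs. Flower was higher in 7318 of the called genes, 27.0% of the genes tested, and root in 4848, 17.9%. Without the fold limit, 15838 genes, 58.5%, had such an adjusted p. In 7239 of the 7318 genes each flower library lay above each root library, and in 4671 of the 4848 each flower library lay below each root library. Such groups without overlap were also frequent among all genes tested, at 39.0% with flower higher and 28.1% with root higher. A bulk library cannot tell fewer cells of a type from less RNA per cell.

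The balance between the organs depended on how libraries were scaled. The scaling used was TMM, a trimmed mean of log ratios between libraries. Under it 60.2% of the calls were higher in flower, and the log2 fold change of the median gene was 0.23. With plain library totals 73.3% were higher in flower, and the median shifted by a further 0.39. In a fit to the 6 libraries alone 56.0% were higher in flower, and the median shifted by -0.11. Flower held more calls than root in each of the 19 alternatives run.

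**Figure D1:**
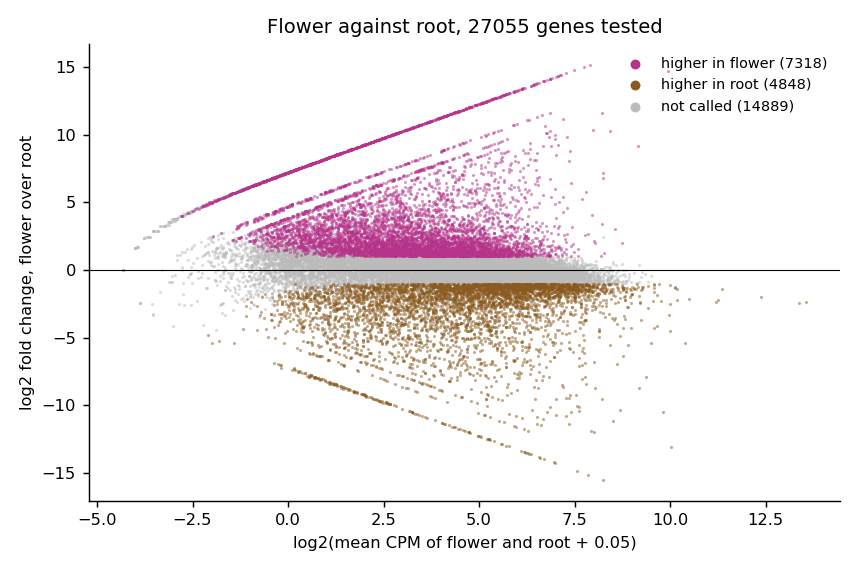
Log2 fold change of flower over root (vertical axis) against the log2 mean CPM of the 6 libraries plus 0.05 (horizontal axis), 1 point per gene tested. Genes called higher in flower (7318) spread over low and middle levels, and genes called higher in root (4848) reach the highest levels. The straight lines of points at the upper and lower edges are genes with 0 or a few reads in the lower organ, whose fitted folds are not measured sizes.

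The differences were of similar size in both directions when genes with almost no reads were treated conservatively. For a gene with fewer than 3 reads in the 3 libraries of the lower organ, the fold was taken as a lower bound against 3 reads over those libraries, 0.0839 CPM in flower and 0.179 CPM in root. Counts and medians of folds use this rule, while single IDs with 1 to 3 reads are given below as a ratio with its interval. The rule applied to 1803 of the genes higher in flower and 294 of those higher in root. The median fold was then 5.61 for genes higher in flower and 4.39 for genes higher in root. At least 8-fold was reached by 2933 genes higher in flower and 1618 higher in root, at least 64-fold by 716 and 455, and at least 256-fold by 236 and 152. At 1024-fold or more the order turned round, with 33 genes higher in flower and 48 higher in root. The bound is coarser for flower-higher genes, at 0.179 CPM in root against 0.0839 CPM in flower. A gene without reads in root thus needs a higher level to reach a given fold. The part of depth in this turn was not tested.

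The fitted folds gave another picture of the extremes. In them 3159 genes higher in flower, 11.7% of the genes tested, and 1606 higher in root, 5.94%, reached 8-fold. At 256-fold the fitted values counted 803 genes higher in flower, 2.97% of those tested, and 249 higher in root, 0.920%, a ratio of 3.22 between the directions, against 1.55 with the lower bounds. The fitted fold of a gene with no reads in 1 organ depends on the small count that the model adds.

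**Figure D2:**
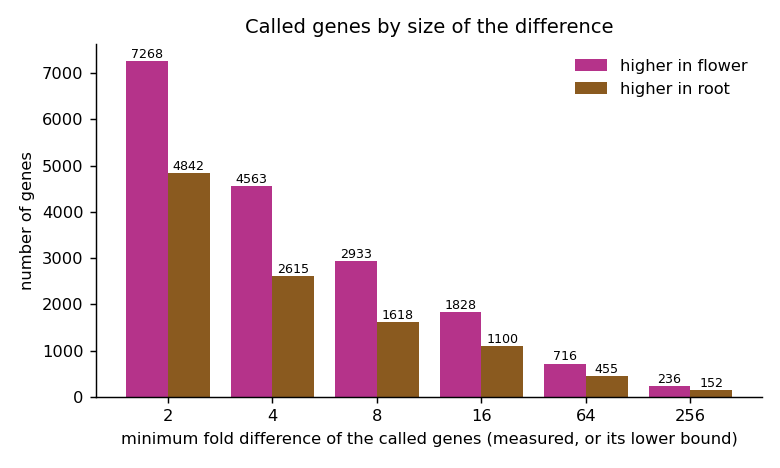
Number of called genes (vertical axis) that reach a minimum fold (horizontal axis), with flower on the left of each pair of bars and root on the right. Folds are ratios of mean CPM, or lower bounds where the lower organ had fewer than 3 reads. From 4563 against 2615 genes at 4-fold to 236 against 152 at 256-fold, genes higher in flower stay the larger group.

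Flower-higher genes were read at lower levels in flower than root-higher genes in root. CPM is a share of reads and is not divided by gene length, which is not given, so it ranks IDs by reads and not by transcripts. The median level in the higher organ was 12.5 CPM in flower for the flower-higher genes and 41.5 CPM in root for the root-higher genes. Over all genes tested the medians were 15.5 CPM in flower and 12.6 CPM in root. Under 10 CPM in the higher organ were 44.2% of the flower-higher and 21.4% of the root-higher genes, against 40.6% of all genes in flower and 45.8% in root. At least 100 CPM was reached by 376 flower-higher genes in flower, 5.14% of that set, and by 1325 root-higher genes in root, 27.3%. Of all genes tested, 7.11% reached it in flower and 10.9% in root. Among the abundant genes the flower differences were the larger ones: the median log2 fold change of the 376 was 3.16, that of the 1325 was -1.71, and 198 and 314 of them reached 8-fold.

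When all tested genes were grouped by their mean level over the 6 libraries, the direction of the calls turned with the level. Of 8766 genes between 1 and 10 CPM, 39.6% were called higher in flower and 16.2% higher in root. Of 13949 genes between 10 and 100 CPM, the shares were 21.4% and 18.3%. Of 2372 genes between 100 and 1000 CPM, 5.44% were called higher in flower and 32.9% higher in root. All 17 genes that averaged 1000 CPM or more were called higher in root, with adjusted p-values up to 0.0293 (edgeR). In 12 of the 17 the flower and root libraries did not overlap, against 4671 of all 4848 root-higher genes. For the genes at 100 CPM or more the counts were 129 higher in flower and 797 higher in root. They were 224 and 448 with plain library totals, and 75 and 934 without flower replicate 2.

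**Figure D3:**
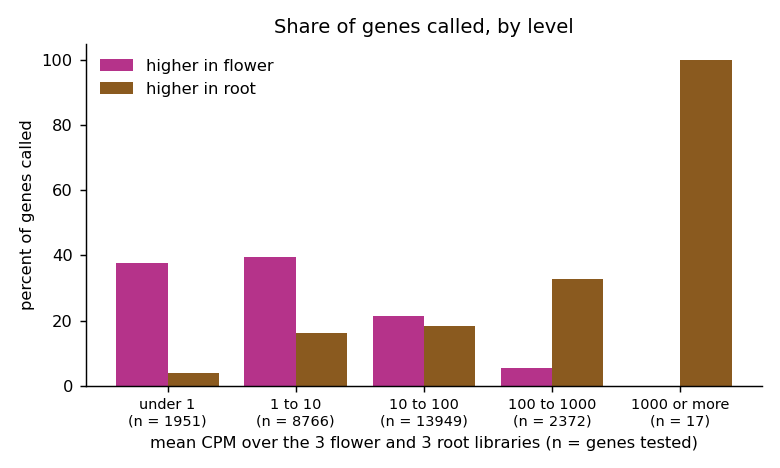
Percent of tested genes called (vertical axis) in groups of mean CPM over the 6 libraries (horizontal axis, with the number of genes tested), flower on the left of each pair of bars and root on the right. The flower share falls to 5.44% between 100 and 1000 CPM, where the root share is 32.9%.

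The most abundant root transcripts took unequal shares of the root libraries. The 34 root-higher genes that averaged 1000 CPM or more in root took 1.60, 2.59 and 2.67% of the counts in flower replicates 1, 2 and 3, against 5.30, 11.2 and 8.99% in root replicates 1, 2 and 3. Among the 34, the highest root library was replicate 2 in 23 genes and replicate 1 in 10, and the highest root value exceeded the lowest by a median of 1.98-fold and by up to 20.6-fold. Their flower and root libraries did not overlap in 27 of the 34, against 4671 of all 4848 root-higher genes. Among all genes tested, each root library lay above each flower library in 28.1%. Root replicate 2, in which they took most, was also the shallowest library, with 3777165 counts, and the part of depth in this was not tested. In stem the 34 genes took 2.32 to 7.13% of the counts, and in shoot apex 0.791 to 0.886%.

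Root libraries were the more concentrated. The 1000 most abundant IDs of each library held 24.9 ± 2.03% of the counts in flower and 36.5 ± 3.27% in root (SD, n = 3 each), and the 100 most abundant held 6.15 ± 1.00% and 12.9 ± 3.06%. For both measures the flower and root libraries did not overlap, and the exact two-sided permutation test gave p = 0.1, the smallest value that 3 libraries against 3 allow. IDs with at least 1 read numbered 30907 ± 202 in flower and 26218 ± 1756 in root (SD, n = 3 each), again with exact permutation p = 0.1. Root replicate 1 had 28151 such IDs from 10015399 counts, fewer than the 30675 of flower replicate 2 from 9567064 counts.

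The called genes made up unequal parts of the libraries. Genes called higher in flower took 23.5, 22.5 and 23.2% of the counts in flower replicates 1, 2 and 3, against 4.18, 2.87 and 3.35% in root replicates 1, 2 and 3. Genes called higher in root took 12.9, 15.5 and 14.2% in flower replicates 1, 2 and 3, against 39.7, 47.7 and 43.5% in root replicates 1, 2 and 3. These sets were chosen by the same libraries, so the shares describe their weight and test nothing. The larger number of genes thus stood on the flower side and the larger weight in reads on the root side. The 7318 flower-higher genes took 23.04 ± 0.518% of flower counts, and the 4848 root-higher genes 43.6 ± 4.03% of root counts (SD, n = 3 each). With sets called on plain library totals these shares were 31.2% and 32.0%, so the gap in weight depended on the scaling. Within the sets, 811 genes held 50% of the summed flower CPM of the flower-higher genes, and 400 held 50% of the summed root CPM of the root-higher genes.

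Stem and leaf fell between flower and root in the share of flower-higher genes, as did shoot apex, but shoot apex lay below every flower library in the share of root-higher genes. Flower-higher genes took 18.4 to 19.2% of the counts of shoot apex libraries, 17.0 to 18.3% of leaf libraries and 9.81 to 11.8% of stem libraries. Root-higher genes took 12.3 to 12.8% of shoot apex counts, 15.02 to 18.8% of leaf counts and 23.1 to 29.7% of stem counts. Stem libraries thus lay nearest to root in both sets, and shoot apex libraries nearest to flower in the flower-higher set. In the root-higher set leaf replicate 2, at 15.02%, lay within the range of the flower libraries.

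**Figure D4:**
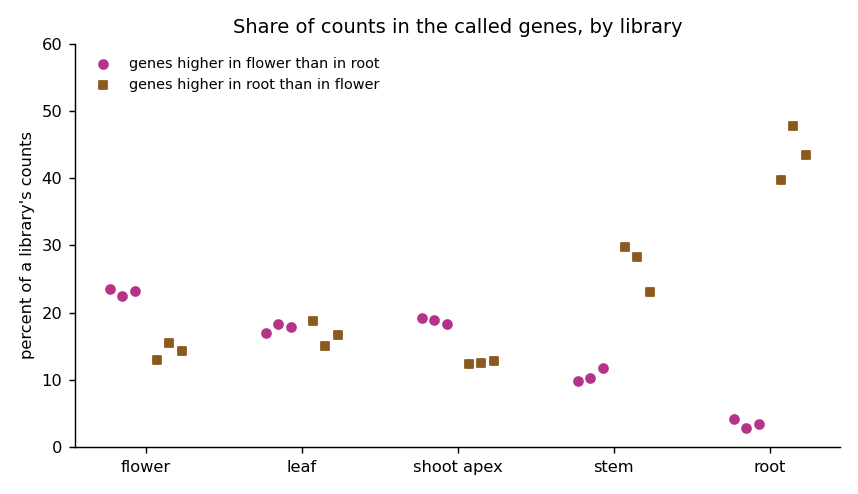
Percent of each library's counts (vertical axis) in genes called higher in flower than in root (circles) and higher in root than in flower (squares), for the 3 libraries of each organ (horizontal axis). Circles lie at 22.5 to 23.5% in flower and 2.87 to 4.18% in root, squares at 12.9 to 15.5% in flower and 39.7 to 47.7% in root.

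A gene that was higher in flower than in root often had its highest level in neither. Of the 7318 flower-higher genes, 3093 (42.3%) had their highest mean CPM of the 5 organs in flower. Shoot apex was the highest organ of 2305 (31.5%), leaf of 1408 (19.2%) and stem of 512 (6.996%). Of the 4848 root-higher genes, 3717 (76.7%) were highest in root. Stem was the highest organ of 667 (13.8%), leaf of 326 (6.72%) and shoot apex of 138 (2.85%). Among all 27055 genes tested, 17.9% were highest in flower and 22.9% in root, with 25.9% for shoot apex, 18.0% for leaf and 15.3% for stem. The stem share of the root-higher genes and the leaf share of the flower-higher genes were thus near those of all genes. With leaf replicates 2 and 3 alone, 3137 flower-higher genes were highest in flower and 1348 in leaf, and 3759 root-higher genes were highest in root and 270 in leaf. At least 1 CPM in all 3 libraries of each of leaf, shoot apex and stem was reached by 3950 of the flower-higher and 2958 of the root-higher genes, and in none of these organs by 1384 and 857. Without leaf replicate 1 these counts were 4012 and 2986, and 1341 and 818. The choice of the sets by flower and root libraries fixes part of these counts, and no test was made on them.

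Many genes were read in 1 organ and hardly or not at all in the other. At least 1 CPM in each flower library and under 1 CPM in each root library was found for 2412 IDs. The reverse, at least 1 CPM in each root library and under 1 CPM in each flower library, was found for 906. Of these, 975 of the 2412 and 162 of the 906 had no read at all in the other organ. At least 1 CPM in all 6 libraries was found for 18944 IDs. With the 6 libraries thinned to the same total of 3777165 counts, the numbers were 2056 for flower and 801 for root. A gene picked by these limits had to lie higher in 1 organ than in the other, so the number of calls among these IDs shows nothing further.

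More flower genes had no read in root than root genes had no read in flower. Of the genes called higher in flower, 975 were at 1 CPM or more in every flower library and had 0 reads in the 3 root libraries, 13.3% of the flower-higher genes. Of the genes called higher in root, 162 were at 1 CPM or more in every root library and had 0 reads in the 3 flower libraries, 3.34% of the root-higher genes. A count of 0 in root allows up to 0.179 CPM, and a count of 0 in flower up to 0.0839 CPM, counting error alone. At equal depth the numbers were 998 and 199, again with more on the flower side. Without root replicate 1, 1608 flower genes had no read in root, so the count of 975 rests in large part on this library. It was the deepest root library and also the one that stood apart from the others. Flower-higher genes took 4.18% of its counts, against 2.87 and 3.35% in root replicates 2 and 3. The parts of depth and of these other differences in the count were not tested.

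The genes without a read in root were mostly modest in flower. Their median was 6.39 CPM in flower, 393 of the 975 averaged 10 CPM or more and 55 averaged 100 CPM or more, and the highest was 476 CPM. Measured against the detection limit of root, they were at least 5.98-fold to at least 2666-fold higher in flower. The 162 genes without a read in flower had a median of 9.14 CPM in root, 77 had at least 10 CPM and 17 at least 100 CPM, and the highest was 610 CPM. These were at least 18.5-fold to at least 7271-fold higher in root. Both sets were a small part of their organ's reads, 2.64% of the flower counts and 0.543% of the root counts.

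Of the 975 genes present in flower with no read in root, 292 were at 1 CPM or more in all 3 shoot apex libraries, 256 in all 3 leaf libraries and 172 in all 3 stem libraries. In 612 of them this level was reached in none of those organs, in 122 it was reached in all 3, and 86 had no read in any of the 12 non-flower libraries. Leaf replicate 1 had reads of 722 of the 975, against 522 in leaf replicate 2 and 481 in leaf replicate 3, although its total was the smallest of the leaf libraries. With leaf replicates 2 and 3 alone, 272 genes reached 1 CPM in leaf, 606 reached it in none of the organs and 124 in all 3. Without leaf replicate 1, 217 genes had no read outside flower, against 86 with it. Of the 162 genes present in root with no read in flower, 145 reached 1 CPM in none of leaf, shoot apex and stem, 14 reached it in stem, and 52 had no read in any of the 12 non-root libraries. Without leaf replicate 1 the counts of none and of no read were 144 and 56.

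A large group of genes was alike in flower and root. For 5828 genes, 21.5% of those tested, the 95% interval of the log2 fold change lay wholly within 2-fold in either direction. They took 36.1% of the flower counts and 29.7% of the root counts, and their median levels were 39.5 CPM in flower and 39.1 CPM in root. In 824 of them the small difference still had an adjusted p under 0.05 (edgeR). The remaining 9061 genes were neither called nor shown to be alike. Among these, 985 genes with flower higher and 418 with root higher had an estimated change of at least 2-fold that missed the adjusted p of 0.05. Their median standard errors on the log2 scale were 0.83 and 0.75, and a difference was not detectable at this depth and replicate spread.

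Values of single genes are given for 2 IDs in each direction: the most abundant one of at least 8-fold, and the one with the largest fold or bound among those with at least 10 CPM, or the next by that measure where both are the same gene. E3N88_15267 was first by both measures in flower. It stood at 1160, 2235 and 2535 CPM in flower replicates 1, 2 and 3, against 0, 0 and 0.212 CPM in root replicates 1, 2 and 3. The root libraries held a single read of it, in replicate 3, and the flower libraries 68357 reads. The ratio of flower to root, from summed reads over scaled totals, was 32114 with an exact 95% interval of 5764 to 1268450, which covers counting error alone (edgeR adjusted p = 0.000503). It was also read in leaf replicate 1, at 160.5 CPM, against 0 and 0.306 CPM in leaf replicates 2 and 3. Without leaf replicate 1 in the fit its adjusted p for flower over root was 1.2e-08.

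E3N88_15268, the runner-up in flower by fold and the next ID by number, behaved in the same way at a lower level. It had 375, 701 and 716 CPM in flower replicates 1, 2 and 3, against 0.331, 0 and 0 CPM in root replicates 1, 2 and 3. All 3 root reads came from replicate 1. The ratio was 3239 with an exact 95% interval of 1108 to 15706 (edgeR adjusted p = 0.000815). Flower replicate 1 was the lowest flower library for both IDs, at 374.7 CPM for E3N88_15268 against 701.4 CPM in flower replicate 2. No read of it was found in shoot apex or stem. Leaf had 43.2, 0 and 0.204 CPM in replicates 1, 2 and 3, and without leaf replicate 1 in the fit the adjusted p for flower over root was 6.37e-08 (edgeR).

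E3N88_03411 was the most abundant root ID with at least 8-fold. It was at 49.8, 80.1 and 57.9 CPM in flower replicates 1, 2 and 3, against 1290, 3736 and 2798 CPM in root replicates 1, 2 and 3. All root libraries lay above all flower libraries, and root replicate 1 was the lowest of root. The log2 fold change of flower over root was -5.38 ± 0.53 (SE, edgeR adjusted p = 5.23e-06). It was a root-dominant gene and not a root-restricted one, since it was at 297, 51.3 and 160.2 CPM in leaf replicates 1, 2 and 3 and averaged 153 ± 62.4 CPM in stem and 46.6 ± 23.4 CPM in shoot apex (SD, n = 3 each).

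E3N88_02871 was nearly absent from flower. It had 0, 0.292 and 0.434 CPM in flower replicates 1, 2 and 3, from 8 reads in all, against 3387, 1288 and 1552 CPM in root replicates 1, 2 and 3, from 41879 reads. The log2 fold change was -13.08 ± 0.90 (SE, edgeR adjusted p = 2.12e-08), and mean root CPM was 8579 times mean flower CPM. Here root replicate 1 was the highest root library, where for E3N88_03411 it was the lowest. In the other organs it stayed at or below 0.148 CPM on average.

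**Figure D5:**
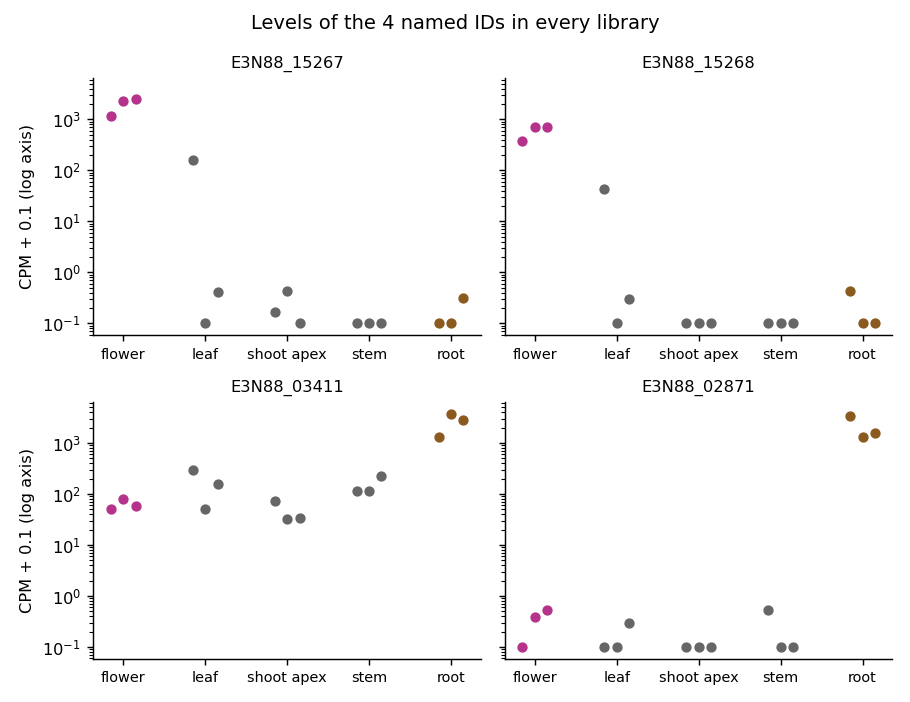
CPM plus 0.1 on a log axis (vertical) of the 4 named IDs in each library of the 5 organs (horizontal axis), 1 point per library in the order of replicates 1 to 3. The upper panels are IDs higher in flower and the lower panels IDs higher in root. E3N88_03411 stays between 32.5 and 297 CPM outside flower and root. The other IDs are near the bottom there, apart from E3N88_15267 and E3N88_15268 in leaf replicate 1.

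Genes called in the same direction often had neighbouring ID numbers. Among tested genes whose next number was also tested, the next gene was called higher in flower after 33.2% of 5253 flower-higher genes, against 26.7% over all 19652 such pairs. It was called higher in root after 25.8% of 3421 root-higher genes, against 17.4% over all pairs. A flower-higher gene was followed by a root-higher one in 14.3%, and a root-higher gene by a flower-higher one in 22.9%. Runs of at least 4 consecutive numbers called in the same direction numbered 72 in flower and 40 in root. They held 312 genes, 4.26% of the flower-higher genes, and 183 genes, 3.77% of the root-higher genes. How many such runs the shares of called genes alone would give was not worked out. Whether consecutive numbers are neighbours in the genome is not given in the sources used here, and reads of near-identical copies may have been split between IDs by the counting.

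The longest runs held 7 flower-higher IDs (3 runs) and 8 root-higher IDs (2 runs). In each direction 1 run was close to absent from the other organ. These 2 runs were chosen after their values were seen. The remaining flower runs had 819 and 1022 reads in root, against 8637 and 11463 in flower. The remaining root run had 1503 reads in flower, against 4390 in root. The 7 IDs from E3N88_39258 to E3N88_39264 had 36.9, 34.6 and 37.3 summed CPM in flower replicates 1, 2 and 3, against 0.110, 0 and 0 in root replicates 1, 2 and 3. In root, 6 of the 7 had no read and the seventh had 1. Their summed level was higher still in shoot apex, at 88.6 to 118 CPM, with 43.4 to 55.6 CPM in leaf and 6.20 to 9.02 CPM in stem. The 8 IDs from E3N88_08776 to E3N88_08783 had 0.717, 0.292 and 0.174 summed CPM in flower replicates 1, 2 and 3, against 32.6, 73.0 and 81.5 in root replicates 1, 2 and 3. Outside root their summed level did not pass 1.77 CPM in any library. The adjusted p of each ID was at most 0.0187 in the flower run and at most 0.00141 in the root run (edgeR). Since runs were made of called IDs, a value under 0.05 was fixed in advance.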

How the data were processed

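RNA was extracted with TRIzol, and libraries were built and sequenced by a company, per the labels' protocols. The authors' deposited table holds raw counts of reads for each gene ID, 1 column per library. Alignment was with HISAT2, per the submitters' processing notes. For its version, the counting program, strand handling, genome build and annotation, nothing is given in the sources used here, so counts of near-identical, overlapping and antisense genes are uncertain.

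From the counts, genes were kept with filterByExpr, scaled by TMM and fitted in edgeR 4.0.16 (R 4.3.3) with 1 term per organ over all 15 libraries. Adjusted p-values are Benjamini-Hochberg over 27055 genes, and the contrast is flower over root. CPM uses TMM-scaled totals. Standard errors combine the Fisher information with the moderated quasi-dispersion, with 10 residual and 5.02 prior degrees of freedom. Replicates of an organ differed by a chi-square of 5.12 to 48.8 per degree of freedom, above sampling noise. The procedure was run on simulated counts in which a small part of the genes was changed, always higher in flower. The real comparison has many more differences and both directions, so that run cannot tell how the scaling fares here.

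The comparison and the gene sets were chosen with earlier results of these data known. For named genes the rule was 2 IDs per direction, as the report gives it. Gene lists planned for named genes were not used, since no ID could be matched to a name. Alternatives were other scalings, DESeq2 1.42.0, fits to 6 libraries, a replicate block, other filters and fold limits, thinning, and leaving out libraries. Leaving out leaf replicate 1 was chosen after the data were seen.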

Additional observations from a re-analysis of the deposited data

How the results depend on the processing

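Over 19 alternatives the number of called genes was 10447 to 15838 against 12166, and no gene changed direction between calls. The extremes were a replicate block in the fit to 6 libraries (10447 calls, 83.4% of the 12166 shared) and the adjusted p alone (15838). DESeq2 called 12047 genes and shared 96.3% of the calls. Deviations of same-numbered flower and root libraries correlated at -0.20, -0.087 and -0.014, and those of different-numbered libraries at -0.14 to 0.16. No pairing by replicate number was thus seen, though so few libraries cannot exclude it. The replicate block over 15 libraries gave 11867 calls. Without 1 library at a time, calls numbered 11432 to 12902, genes present in flower with no read in root 974 to 1608, the highest without root replicate 1, and flower-higher genes at 100 CPM or more 75 to 183, the lowest without flower replicate 2. At that level the adjusted p alone gave 213 genes higher in flower and 1390 higher in root, where no fold limit is set, and plain library totals gave 224 and 448. Sets called with plain library totals took 31.2% of flower and 7.01% of root counts for flower-higher genes, and 7.60% of flower and 32.0% of root counts for root-higher genes; the cause was not tested. Without the 10 most abundant IDs, root-higher genes took 12.8% of the flower counts. The other 265 values of counts and shares moved by at most 1.5 times or 1 SD, and the 4 named genes kept their direction and stayed below an adjusted p of 0.05 in all 75 values, with adjusted p-values from 1.47e-22 to 0.00692. DESeq2 gave no adjusted p for E3N88_15268. Root, with the fewest reads and the wider replicate spread, limits what could be detected.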

Other observations

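IDs outside the test were mostly read in flower. Of the 7086 IDs with a read in flower or root that did not pass the filter on low counts, 3583 had reads in flower and none in root, and 737 had reads in root and none in flower. No such ID held more than 280 reads over the 6 libraries. A further 7363 IDs had no read in flower or root. The flower libraries held more counts than the root libraries, so these numbers are not at equal depth.

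The highest replicate was unevenly spread in both organs. Among the 4848 genes called higher in root, root replicate 2 was the highest root library in 2294, root replicate 1 in 1816 and root replicate 3 in 738. Among the 7318 genes called higher in flower, flower replicate 1 was the highest flower library in 3149, flower replicate 3 in 2259 and flower replicate 2 in 1910. The same counts over all genes tested are not given here, so these do not set the called genes apart from the rest.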
